A study of Mus musculus with 8 samples.

Results

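mmu-miR-150, mmu-miR-126a and mmu-miR-451a (miR-150, miR-126a and miR-451a below) are 3 mouse miRNAs known from blood and from the vessel wall. They were taken by name from a table of 1099 mature miRNAs, which gave 5 rows: both arms of miR-150, both arms of miR-126a, and miR-451a. The table comes from small RNA libraries of KH2-DGCR8 cells, a KH2 mouse embryonic stem cell line that carries a DGCR8 transgene, cultured as embryoid bodies (EBs), the cell aggregates in which stem cells differentiate. Libraries were made at days 0, 1, 2 and 4, in each case with doxycycline (Dox), the drug that switches on the transgene, and without Dox, so all 8 carry the transgene. There was 1 library per condition and no replicate of any, and how long Dox had been given is not stated in the sources used here. The study asked what overexpressed DGCR8 does to miRNA production during differentiation. Dgcr8 messenger RNA is not read by these libraries, so the induction itself was not checked here.

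miRNAs are cut from primary transcripts by the Microprocessor, in which DROSHA is the nuclease and DGCR8 its RNA-binding partner, and most hairpins are then cut by DICER and loaded into an Argonaute protein. miR-150 is abundant in mature B, T and natural killer cells, where it represses the transcription factor Myb. miR-126a lies in an intron of Egfl7, an endothelial gene, and supports signalling by vascular endothelial growth factor. miR-451a is an erythroid miRNA made from the same primary transcript as miR-144. Its hairpin is too short for DICER and is cut by AGO2 instead. Blood and endothelium both arise from mesoderm, which EBs form as they differentiate.

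RefSeq (build GRCm38.p6) held a mature sequence for 3 of the 5 rows, shown here because the first bases of a miRNA choose its targets. The seed, bases 2 to 8, is in capitals. None of these seeds was shared by another of the 926 rows of the table that had a RefSeq sequence.
miR-126a-3p: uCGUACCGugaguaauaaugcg
miR-150-3p: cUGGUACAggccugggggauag
miR-451a: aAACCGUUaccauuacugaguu

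The hairpins of miR-126a and miR-451a are given with the mature miRNA in capitals, because they differ in where that miRNA sits.
Mir126a: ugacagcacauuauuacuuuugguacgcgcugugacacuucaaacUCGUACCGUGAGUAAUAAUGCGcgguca
Mir451a: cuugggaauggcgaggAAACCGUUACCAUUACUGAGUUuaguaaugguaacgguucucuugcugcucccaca
In structures predicted with RNAfold, the single terminal loop of the Mir126a hairpin spans bases 36 to 39 and miR-126a-3p runs from base 46 to base 67, wholly on the 3′ side. The loop of the Mir451a hairpin spans bases 35 to 38 and miR-451a runs from base 17 to base 38, so it takes in all 4 bases of the loop. Of 849 mature sequences of the table that lie in a hairpin with 1 predicted loop, only 1 (0.118%), miR-451a, covered its loop.

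The Mir126a hairpin lies at chr2:26591357-26591429 on the plus strand (mm10/GRCm38), inside Egfl7. It is intronic in the overlapping transcripts of GENCODE M21 apart from 1 retained-intron transcript. Mir126b is annotated on the opposite strand of the same place. The Mir150 hairpin, at chr7:45121757-45121821 on the plus strand, lies in no other gene. The Mir451a hairpin, at chr11:78073170-78073241 on the plus strand, lies in no host gene, with Mir451b annotated at the same coordinates on the minus strand, and 99 bases separate it from the hairpin of Mir144.

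The values are whole numbers that sum to between 999965 and 1000047 per library, read here as RPM, the reads of a miRNA scaled to a common library total. At the smallest read totals that fit, their step size implies between 362483 and 541342 reads per library. There 1 read is worth between 1.85 and 2.76 RPM. Intervals below are 95% exact binomial intervals on those implied reads. They cover counting error only, and may be too narrow even for that, since copies made by PCR are not independent molecules. The miR-290 cluster, which marks stem cells, held 40.5% of reads with Dox and 46.1% without Dox at day 0, and 22.9% and 16.3% at day 4. As that share fell, the other miRNAs together took more of a fixed total. The median log2 change of the 839 miRNAs tested was 0.37 at day 1, 0.48 at day 2 and 0.56 at day 4, each against day 0. Scaled to values outside the miR-290 cluster, these medians were 0.30, 0.33 and 0.10. What moved the medians was not tested, and changes with day are to be read against them. The day 4 libraries also stood apart in the miR-302 cluster, miRNAs of early differentiation, which summed to 2369 RPM with Dox and 35789 RPM without Dox. Values without either library are given where they change a result.

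miR-150-5p, the main arm of mmu-miR-150, fell as EBs differentiated. Its levels on days 0, 1, 2 and 4 were 1080, 500, 219 and 74 RPM with Dox. Without Dox they were 1185, 794, 211 and 50 RPM on the same days. Its level went down at every step in both series, and the day 0 and day 4 libraries did not overlap. The share of all miRNAs that did the same was not counted. miR-150-5p ranked 82nd of all miRNAs in both day 0 libraries, and 314th with Dox and 360th without Dox at day 4.

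At day 4 against day 0 miR-150-5p fell by 4.19 in log2 units (SE 0.35, limma adjusted p = 2.50e-29). This was the lowest of the 839 changes tested, and its difference from their median was -4.76. At day 2 against day 0 it had fallen by 2.39 (SE 0.35, adjusted p = 1.74e-09). At day 1 its log2 change of -0.84 (SE 0.35) did not pass (limma adjusted p = 0.129), but it passed with median-of-ratios scaling (log2 change -1.22, adjusted p = 0.0108) and without the day 4 library with Dox (adjusted p = 0.0358) or without Dox (0.0324). Of all miRNAs tested, 25.7% were called at day 4 (21.9% higher and 3.81% lower), 17.3% at day 2 (15.3% higher and 2.03% lower) and 8.10% at day 1 (7.03% higher and 1.07% lower). The very small p-values rest on a spread that limma took almost wholly from the other miRNAs. The residual SD of miR-150-5p itself was 0.36 on 3 degrees of freedom, close to the moderated 0.35, and without the robust option the adjusted p was 0.00163 at day 4 and 0.0218 at day 2. In bulk RNA, fewer cells that hold a miRNA and less of it per cell cannot be told apart.

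The first and second steps differed in size between the series. With Dox, miR-150-5p was 2.16-fold lower at day 1 than at day 0 (interval 1.84 to 2.53), 2.28-fold lower at day 2 than at day 1 (1.81 to 2.897) and 2.96-fold lower at day 4 than at day 2 (2.04 to 4.39). Without Dox the same steps were 1.49-fold (1.30 to 1.72), 3.76-fold (2.97 to 4.80) and 4.25-fold (2.54 to 7.50). All 6 intervals excluded 1. The first step was wider with Dox and the second wider without Dox, and both use the day 1 libraries. The intervals of the last step overlap. From day 0 to day 4 the fall was 14.6-fold with Dox (10.5 to 20.8) and 23.9-fold without Dox (14.9 to 40.6), and these intervals overlap. With median-of-ratios scaling the ratio of day 4 to day 0 was 0.0458 with Dox and 0.0272 without Dox, against 0.0684 and 0.0419 on the deposited values. The fall to day 4 rests on 40 implied reads with Dox and 18 without Dox at day 4.

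Ordered by level, the miR-150-5p libraries ran by day: both day 0 libraries first, then day 1, day 2 and day 4. Of the 7 neighbouring pairs in that order, 4 had a ratio whose counting interval excluded 1. The 3 pairs that did not differ beyond counting error were the Dox and no Dox libraries of day 0, of day 2 and of day 4.

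miR-150-3p, the other arm of the same hairpin, was close to the limit of detection. It had 6, 1, 0 and 0 implied reads with Dox at days 0, 1, 2 and 4, and 3, 2, 0 and 0 without Dox. It was seen at days 0 and 1 alone, with 9 of its 12 reads at day 0. It passed the test as lower at day 4 (limma adjusted p = 0.0124) and at day 2 (adjusted p = 0.0198), but it entered the test only through the early libraries in which it was above 0. Its mean of 11.5 RPM at day 0 was 1.66 times a floor of 3 reads per library at day 4. That ratio leaves out the counting error of the 9 reads at day 0, so it is no bound on the fall. The upper 95% limit of the ratio of day 4 to day 0 was 0.574 with Dox and 2.75 without Dox. The value of 1.66 also rests on the day 0 library with Dox: without it, the ratio of day 0 (7 RPM) to the floor is 1.01. The call was lost without the day 0 library with Dox (adjusted p = 0.213 at day 4 and 0.268 at day 2), without either day 4 library (adjusted p = 0.0667 and 0.0597 at day 4), and at day 2 without the day 0 library without Dox (0.0819) or either day 2 library (0.182 and 0.233).

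The 5p arm held nearly all miR-150 reads. Its share was 98.5% with Dox (interval 96.8% to 99.4%) and 99.4% without Dox (98.2% to 99.9%) at day 0, and 99.6% and 99.4% at day 1. At days 2 and 4 it was 100% in all 4 libraries, where the 40 reads with Dox and 18 without Dox at day 4 allow a share as low as 91.2% and 81.5%. The intervals of all libraries overlap, so a change in arm use was not detectable at this depth.

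**Figure D1:**
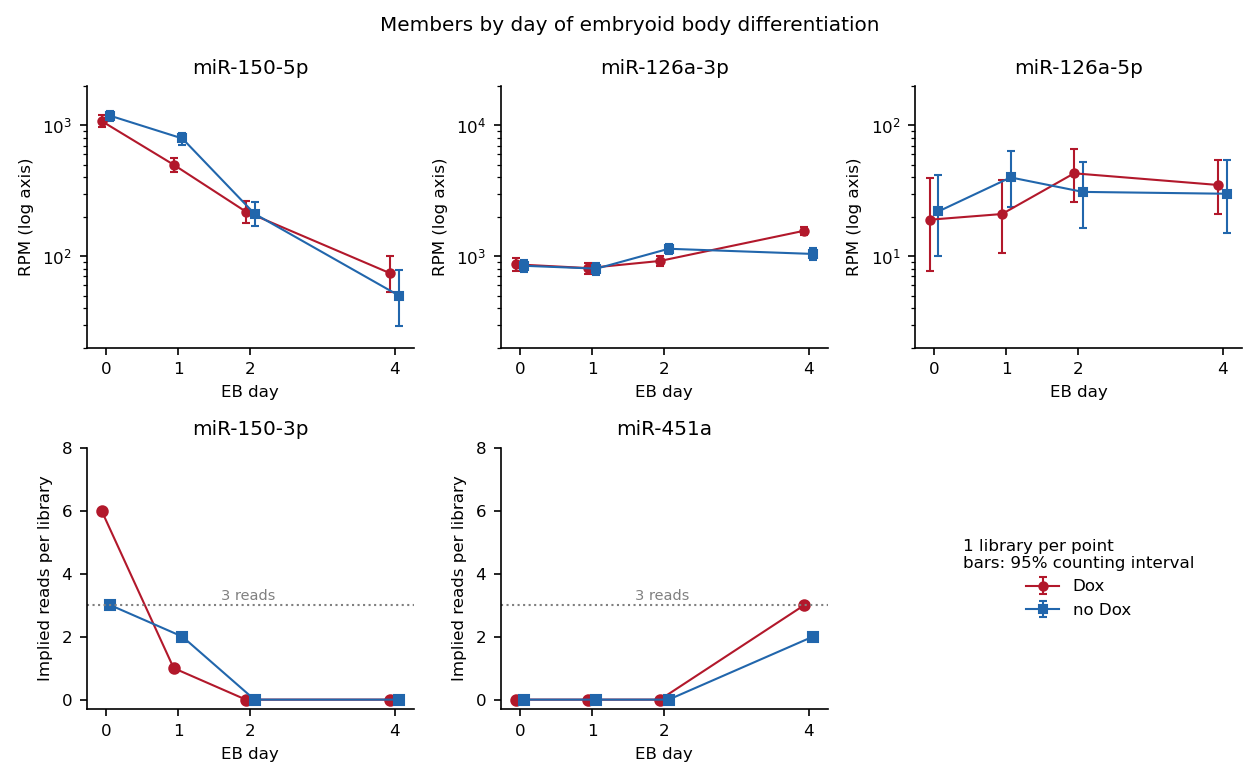
RPM on a log axis (top row, bars: 95% counting interval) or implied reads (bottom row) of the 5 rows by EB day, with Dox (red circles) and without Dox (blue squares), 1 library per point; the dotted line marks 3 reads. miR-150-5p runs down to 74 RPM with Dox and 50 RPM without Dox at day 4, miR-126a-3p stays between 803 and 1565 RPM, and miR-451a has reads at day 4 alone.

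miR-126a-3p, the main arm of mmu-miR-126a, had at least 803 RPM in every library and passed no test. Its levels on days 0, 1, 2 and 4 were 866, 811, 919 and 1565 RPM with Dox. Without Dox they were 844, 803, 1139 and 1040 RPM. The day 4 library with Dox was the highest, and the remaining 7 lay between 803 and 1139 RPM. On the deposited values, all day 2 and day 4 libraries were above all day 0 and day 1 libraries, and the treatments had no fixed order. The share of all miRNAs with such an order of days was not counted, and on these values their median also rose with day. With median-of-ratios scaling the log2 change of miR-126a-3p at day 2 against day 0 was -0.22, so this order rests on the scaling. miR-126a-3p ranked between 81st and 110th of all miRNAs in every library.

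At day 4 against day 0, miR-126a-3p had a log2 change of 0.58 (SE 0.29, limma adjusted p = 0.149), which lay 0.01 above the median of all 839 miRNAs. With median-of-ratios scaling the change was -0.022, so its sign rests on the scaling. The value moved with either day 4 library: leaving out the one with Dox gave 0.24 (adjusted p = 0.683), and leaving out the one without Dox gave 0.91 (adjusted p = 0.0300). At day 1 and day 2 against day 0 the log2 changes were -0.08 and 0.26 (SE 0.29 each, limma adjusted p = 0.9495 and 0.647). Their differences from the medians of all miRNAs were -0.45 and -0.22. The day 2 change was also -0.22 with median-of-ratios scaling. Within the Dox series miR-126a-3p was 1.81-fold higher at day 4 than at day 0 (interval 1.59 to 2.06), and within the no Dox series 1.23-fold (1.06 to 1.43). With median-of-ratios scaling these ratios were 1.21 and 0.802, so the second turned round.

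Ordered by level, only the first pair of miR-126a-3p libraries, day 4 with Dox over day 2 without Dox, differed beyond counting error (1.37-fold, interval 1.23 to 1.54), and the other 6 neighbouring pairs did not.

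miR-126a-5p, the other arm, was low but above 0 in all 8 libraries. Its levels on days 0, 1, 2 and 4 were 19, 21, 43 and 35 RPM with Dox, and 22, 40, 31 and 30 RPM without Dox, which are between 7 and 20 implied reads. No neighbouring pair in its order of levels differed beyond counting error. Its log2 change at day 4 against day 0 was 0.64 (SE 0.59, limma adjusted p = 0.517), and at day 2 it was 0.81 (SE 0.59, adjusted p = 0.418).

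The 3p arm took between 95.3% (interval 92.6% to 97.2%), at day 1 without Dox, and 97.8% (95.6% to 99.1%), at day 0 with Dox, of miR-126a reads. Over all libraries miR-126a-3p had 3582 reads and miR-126a-5p 108, a ratio of 33.2. For miR-150 the same ratio of main arm to other arm was 145.8, from 1750 and 12 reads. Mir126b, which overlaps Mir126a on the opposite strand, had 1 read in all, of miR-126b-3p at day 1 without Dox.

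**Figure D2:**
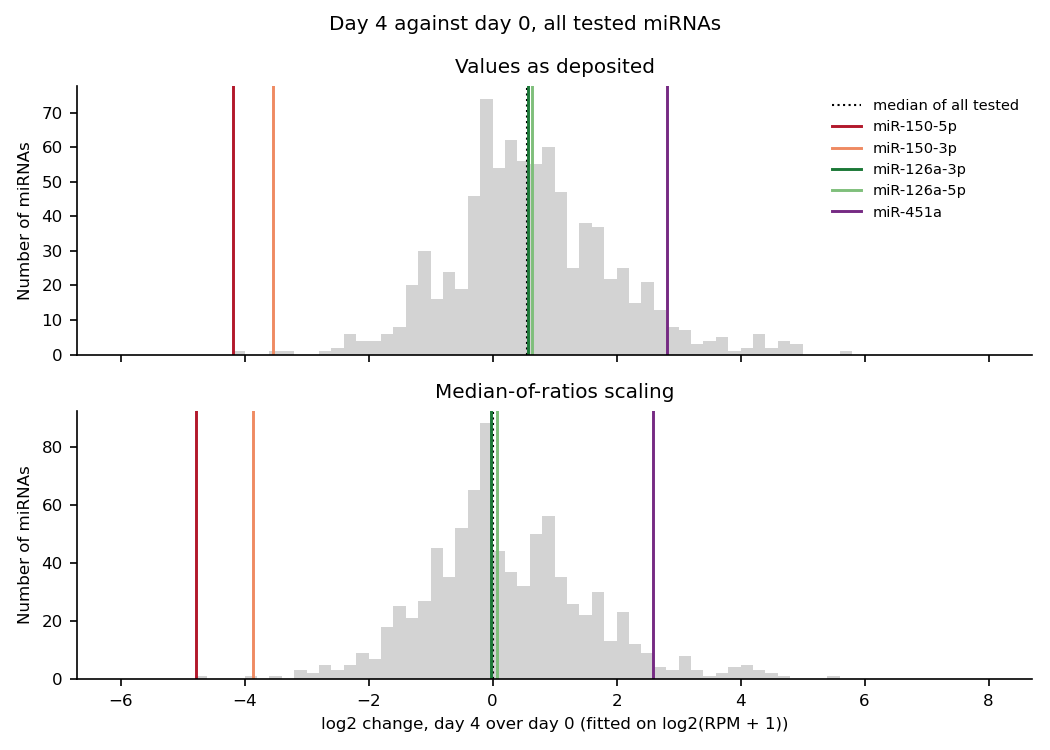
Number of the 839 tested miRNAs by log2 change at day 4 over day 0, on the values as deposited (top) and with median-of-ratios scaling (bottom), with vertical lines at the 5 rows and a dotted line at the median. miR-150-5p has the lowest change in both panels (-4.19 and -4.79), while miR-126a-3p lies next to the median in both (0.58 against 0.56, and -0.022 against 0.0067). The lines of miR-451a and miR-150-3p are no folds, since 1 of the days compared has 0 reads.

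miR-451a (mmu-miR-451a) was listed at 0 at days 0, 1 and 2 in both series and at 6 RPM in both day 4 libraries. These values are 3 implied reads with Dox and 2 without Dox. In the 6 earlier libraries the level of 3 reads lay between 5.79 and 8.20 RPM. The upper 95% limits of their counts of 0 lay between 7.12 and 10.1 RPM, above the day 4 level. It passed the test at day 4 against day 0 (limma adjusted p = 0.0355), but it had entered the test only through those 2 libraries, and no fold is given because both days lie at or under the level of 3 reads. Its own residual spread was 0, because the day 4 values were equal after rounding, so the SE came from other miRNAs. The call was lost with median-of-ratios scaling (adjusted p = 0.0594), when scaled outside the miR-290 cluster (0.0711), with limma-voom on the implied reads (0.0673) and without either day 0 library (0.222 and 0.254) or the day 2 library without Dox (0.0512). Of all miRNAs tested, 21.9% were called higher at day 4.

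miR-144, the erythroid partner of miR-451a on the same transcript, was not called. miR-144-3p had 1, 1, 0 and 0 implied reads with Dox at days 0, 1, 2 and 4 and 2, 1, 0 and 0 without Dox, and its log2 change at day 4 was -2.29 (SE 1.11, adjusted p = 0.122). miR-144-5p had 1 read in all, at day 2 with Dox. Both arms of miR-144 were thus at 0 in the day 4 libraries in which miR-451a was seen. The upper 95% limit of 0 reads was 6.81 RPM with Dox and 10.2 RPM without Dox there.

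Dox was compared with no Dox over the 4 days to ask whether these miRNAs moved with the induction of DGCR8. None of the 5 rows passed, against 1.91% called of all 839 miRNAs (1.31% higher and 0.596% lower). Nor did any of the 5 have an unadjusted limma p under 0.05, which 88 of the 839 had. The log2 change was -0.05 for miR-150-5p (SE 0.25, limma adjusted p = 0.993) and 0.08 for miR-126a-3p (SE 0.21, adjusted p = 0.983). It was -0.11 for miR-126a-5p (SE 0.42), 0.09 for miR-150-3p (SE 0.82) and 0 for miR-451a (SE 0.76). These means over days hide days that differ in sign. Leaving out day 1 turned miR-150-5p to 0.16 and miR-126a-5p to 0.16, leaving out day 4 turned miR-126a-3p to -0.086, and leaving out day 0 turned miR-150-3p to -0.25.

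By day, miR-150-5p had a Dox to no Dox ratio of 0.911, 0.630, 1.04 and 1.49 at days 0, 1, 2 and 4. Only the day 1 interval (0.535 to 0.742) excluded 1, and that at day 4 ran from 0.834 to 2.76. For miR-126a-3p the ratios were 1.03, 1.01, 0.807 and 1.50. Here the intervals of day 2 (0.707 to 0.921) and day 4 (1.33 to 1.70) excluded 1, on opposite sides. All 4 intervals of miR-126a-5p included 1, with ratios of 0.877, 0.531, 1.38 and 1.16. A single pair of libraries per day gives no measure of how much cultures vary, so these intervals do not test Dox.

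A second model asked whether the Dox ratio changed with day, with a term for treatment multiplied by day number. None of the 5 rows passed, against 0.954% of all miRNAs (0.238% higher and 0.715% lower). The log2 change per day was 0.23 for miR-150-5p (SE 0.16, limma adjusted p = 0.644) and 0.13 for miR-126a-3p (SE 0.13, adjusted p = 0.754), and the miR-126a-3p value was -0.17 without the day 4 pair.

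**Figure D3:**
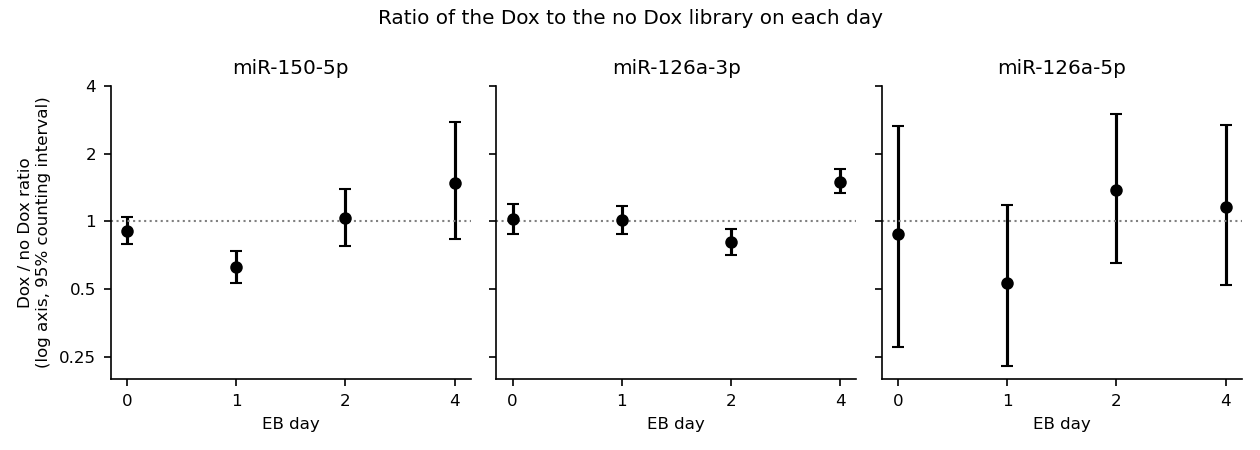
Dox to no Dox ratio (log axis) on each EB day for 3 of the 5 rows, with 95% counting intervals on implied reads; each point is 1 pair of libraries and the dotted line marks equal levels. The intervals that exclude 1 are those of miR-150-5p at day 1 (0.630) and of miR-126a-3p at day 2 (0.807) and day 4 (1.50).

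Other miRNAs of the same cell types were set beside them. Of 12 rows of other blood miRNAs 9 were tested, and at day 4 against day 0 1 was called higher and 0 lower, against 21.9% higher and 3.81% lower of all miRNAs, with a median of 0.27 against 0.56. The called one was miR-146a-5p, an inhibitor of inflammatory signalling, which rose by 2.44 (SE 0.47, limma adjusted p = 2.57e-06). It had 55, 58, 62 and 262 RPM with Dox on days 0, 1, 2 and 4, and 29, 33, 112 and 188 RPM without Dox. miR-155-5p, found in activated lymphocytes and macrophages, lay between 50 and 104 RPM in all libraries (log2 change 0.47, SE 0.47, adjusted p = 0.552). miR-142a-3p, present in most white blood cells, stood at 46, 8, 11 and 17 RPM with Dox and at 27, 38, 59 and 14 RPM without Dox (log2 change -1.14, SE 0.65, adjusted p = 0.210).

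Whereas miR-150-5p fell, the summed level of the other blood rows was 441 RPM with Dox and 326 RPM without Dox at day 4, against 216 RPM with Dox and 158 RPM without Dox at day 0. Most of that difference was miR-146a-5p, which is also made outside blood. miR-486a-5p and miR-486b-5p, near-identical erythroid and muscle miRNAs that cannot be separated, were called lower at day 2 (2.03% of all miRNAs were). Each had 9 RPM with Dox and 2 RPM without Dox at day 2, where 1 read was worth 2.13 and 2.37 RPM, so the call rests on a few reads. Each had 25 RPM with Dox and 17 RPM without Dox at day 0, and 31 and 19 RPM at day 4. At day 1 against day 0, 0 of the 9 were called in limma, against 8.10% of all miRNAs. The same held for Dox, against 1.91% of all miRNAs.

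Of 9 rows of other endothelial miRNAs 7 were tested, with 1 higher and 0 lower at day 4, against 21.9% and 3.81% of all miRNAs, and a median of 0.60 against 0.56. That one, named after its values were seen, was miR-218-5p, which lies in the Slit genes, at 54 RPM with Dox and 88 RPM without Dox at day 4, against 14 RPM with Dox and 15 RPM without Dox at day 0 (log2 change 2.18, SE 0.68, adjusted p = 0.00789). miR-296-3p and miR-296-5p, the most abundant of the list, had changes of 0.68 (SE 0.33, adjusted p = 0.118) and 0.60 (SE 0.33, adjusted p = 0.185), near the median as for miR-126a-3p. miR-221-3p, which restrains vessel growth, had one of -0.39 (SE 0.45, adjusted p = 0.595). At days 1 and 2 against day 0 and with Dox, 0 of the 7 were called in limma. Of all miRNAs, 8.10% were called at day 1, 17.3% at day 2 and 1.91% for Dox.

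Markers of other cells were set beside these results. The summed level of 12 fibroblast and mesenchymal rows was 58010 RPM with Dox and 40065 RPM without Dox at day 4. At day 0 it was 19693 RPM with Dox and 13904 RPM without Dox. miR-21a-5p made up the whole difference. The other 11 rows summed to 4859 RPM with Dox and 3167 RPM without Dox at day 4, against 5018 RPM with Dox and 5476 RPM without Dox at day 0. At day 4 against day 0, 2 of the 12 rows were called higher (both arms of miR-21a) and 1 lower (miR-145a-5p). Of all miRNAs tested, 21.9% were called higher and 3.81% lower. The miR-21a-3p and miR-145a-5p rows were named after their values were seen. The median change of the list was -0.32, against 0.56 for all miRNAs. The 5 rows of miRNAs abundant in plasma summed to between 20 and 92 RPM with Dox and between 4 and 38 RPM without Dox, and miR-122-5p, the liver miRNA among them, was at 4 RPM or below in every library. The part of such cells or of carried-over RNA in the levels of miR-150, miR-126a and miR-451a was not tested.

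**Figure D4:**
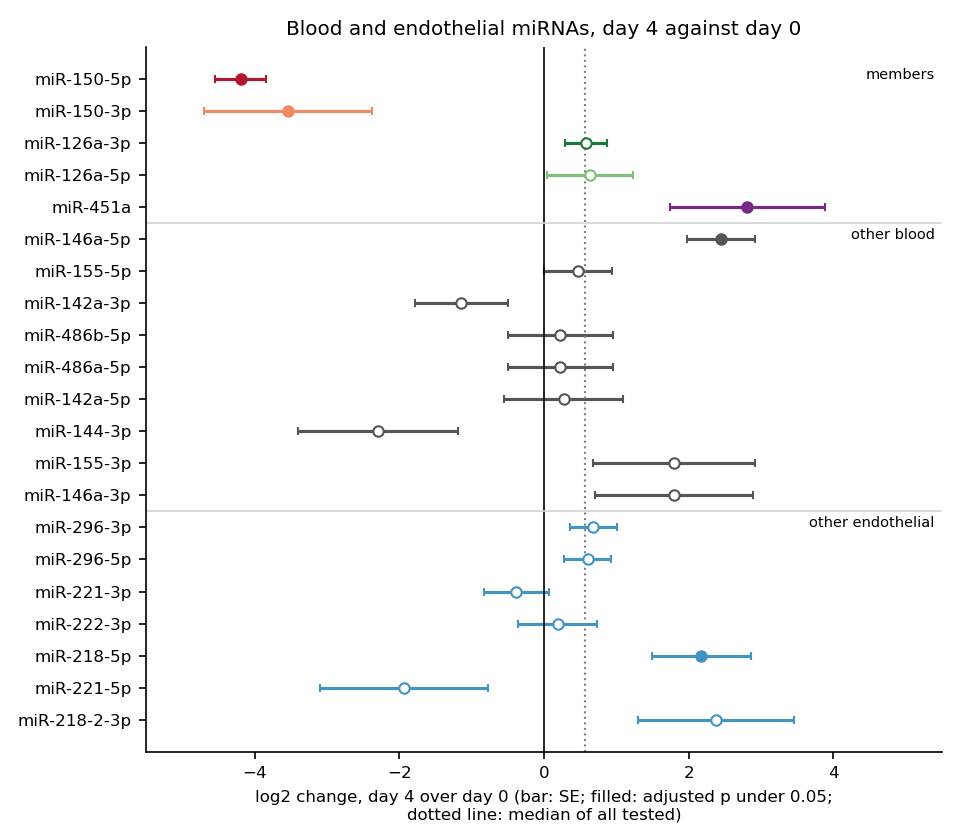
Fitted log2 change at day 4 over day 0 (bars: SE) of the 5 rows and of the tested rows of the other blood and other endothelial lists; filled points passed an adjusted p of 0.05 and the dotted line is the median of all tested miRNAs (0.56). miR-150-5p has the lowest value (-4.19), and of the other blood rows only miR-146a-5p is filled, at 2.44. The fitted values of miR-451a and miR-150-3p are no folds, since 1 of the days compared has 0 reads. Both rows entered the test only through the libraries in which they were above 0.

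The miRNAs whose level ran most like miR-150-5p over the 8 libraries were found by Pearson's r of log2(RPM + 1) among 498 others with a mean of at least 10 RPM. They were miR-181c-5p (r = 0.98), miR-146b-5p (0.97), miR-290a-5p (0.96), miR-181b-5p (0.96) and miR-292a-3p (0.96), while the median r was -0.39. These miRNAs share the libraries and the day axis, and miR-290a-5p and miR-292a-3p belong to the stem cell cluster. At day 4 the log2 change was -2.51 (SE 0.32) for miR-181c-5p, -2.34 (SE 0.27) for miR-181b-5p, -1.47 (SE 0.22) for miR-292a-3p, -1.34 (SE 0.27) for miR-290a-5p and -1.27 (SE 0.31) for miR-146b-5p, against -4.19 for miR-150-5p. The fall of miR-150-5p was not tested against theirs.

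For miR-126a-3p the most similar were miR-485-5p (r = 0.96), miR-1839-3p (0.93), miR-1843a-5p (0.92), miR-1843b-5p (0.89) and miR-146a-5p (0.88), against a median r of 0.29. For miR-126a-5p, which rests on few reads, they were miR-467a-5p and its near copy miR-467b-5p (r = 0.87 for both), miR-466c-5p (0.82), miR-322-3p (0.81) and miR-488-3p (0.80), against a median of 0.24. The lists of the 2 arms of miR-126a had no miRNA in common, and neither named the other arm.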

How the data were processed

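Small RNA libraries were prepared with an NEBNext kit from TRIzol RNA, per the labels' protocols. The deposited values are scores, whole numbers with a near-equal sum in every library, read as rounded RPM. The submitters' processing notes name Bowtie and mm10, with no role. No source used here names the counter, the miRNA annotation or how multi-mapping reads were handled. Of the table's rows, 1 without values was left out.

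Implied reads are the smallest total for which every value is a rounded whole number of reads (tolerance 0.5 RPM). Such a total matched 100% of the values above 0 in each library. More than 1 total did so in every library except those of days 1 and 4 with Dox. There were 207 at day 0 without Dox, and the largest was 999975 reads, at day 2 with Dox. Implied reads and counting intervals thus rest on taking the smallest total. The test took the 839 miRNAs above 0 (1 or more) in 2 or more libraries and ran as log2(value + 1) with limma 3.58.1 (R 4.3.3, trend and robust prior), Benjamini-Hochberg adjusted at 0.05. Folds on that scale understate changes of low miRNAs. Its terms were treatment and day (a factor), leaving 3 residual degrees of freedom. The 2 libraries of a day thus stand in for its replicates, and separate cultures are not stated, so p-values measure only how these libraries vary, which may be technical. The prior degrees of freedom were infinite for all except 39 miRNAs. Each day supplied 1 library of each treatment, so day is a block by design. The test had also been planned for raw counts, which these values are not. Methods were tested on simulated data. Hairpins were folded with RNAfold 2.7.2, and Python was version 3.11.15.

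Named miRNAs are the 5 members, their cluster and antisense partners, up to 4 of the most abundant rows of each list, and the 5 most similar to each member with a mean of at least 10. Members and lists were chosen with earlier results of these data known. Alternatives were another scaling, pseudocount, filter, prior and model, and leaving out libraries or days.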

Additional observations from a re-analysis of the deposited data

Results flagged for a closer look

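The Dox to no Dox ratio of miR-126a-3p lay on opposite sides of 1 on different days: it was 1.50 at day 4 (interval 1.33 to 1.70) and 0.807 at day 2 (0.707 to 0.921). With 1 pair of libraries per day the difference between these days was not tested on its own, and a linear change of the ratio over all days did not pass (0.13 per day, SE 0.13, limma adjusted p = 0.754).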

How the results depend on the processing

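miR-150-5p was called lower at day 4 and at day 2 in all 16 refits of each, with log2 changes between -4.79 and -3.79 at day 4 and between -2.87 and -2.32 at day 2. Median-of-ratios scaling gave a day 4 to day 0 ratio of 0.0458 with Dox and 0.0272 without Dox. At day 1 it passed with that scaling (-1.22) and without either day 4 library (range without 1 library -1.26 to -0.43). miR-126a-3p had a sign that depended on scaling: with median-of-ratios scaling it was -0.22 at day 2 and -0.022 at day 4, and its day 4 over day 0 ratio 1.21 with Dox and 0.802 without Dox, or 1.39 and 0.794 scaled outside the miR-290 cluster. Without 1 library its change ran from -0.0026 to 0.52 at day 2 and from 0.24 to 0.91 at day 4, and its ratios within the Dox libraries (log2 0.85) and within the no Dox libraries (0.30) exceeded counting error. The fitted values of miR-451a and miR-150-3p are set by the pseudocount, since one side has 0 reads, and are no folds: at day 4 they ran from 1.14 to 3.70 and from -4.48 to -1.67 with pseudocounts of 5 and 0.5. miR-451a lost its call at fitted values of 2.59, 2.55 and 2.37 (median of ratios, outside the miR-290 cluster, limma-voom) and at 2.81 without either day 0 library or the day 2 library without Dox, and within either treatment (2.81) its counting interval included 1. Without a day 4 library, or with a mean of at least 10, it was not tested. miR-150-3p had fitted values from -4.21 to -2.88 at days 2 and 4 without 1 library, and within the no Dox libraries its change of -3 was within counting error. It was not tested with a mean of at least 10.

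For Dox, where no member passed in any refit, leaving out libraries or days gave -0.25 to 0.16 for miR-150-5p, -0.086 to 0.21 for miR-126a-3p, -0.29 to 0.16 for miR-126a-5p and -0.25 to 0.36 for miR-150-3p, which was -0.0043 with limma-voom. The change per day ran from -0.17 to 0.23 for miR-126a-3p and from -0.54 to 0.21 for miR-150-3p. At day 1, miR-126a-5p ran from -0.042 to 1.01.

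Over all miRNAs, Dox calls numbered 16, with 0 for a prior that is not robust (71 at an unadjusted p under 0.05), 0 with no replicate block (day left out; 25 at an unadjusted p under 0.05), 1 where day was a linear term and 1 to 15 in the fits without a library or a pair. Without 1 library, calls ran from 18 to 106 at day 1, 14 to 189 at day 2 and 118 to 217 at day 4, and without the robust prior they were 13 at day 1 and 72 at day 2. The 8 calls for a changing Dox effect became 5 with no filter, 0 without the robust prior (81 at an unadjusted p under 0.05) and 0 to 12 without a library or a pair. The cause was not tested. Depth limits miR-150-3p, miR-451a and miR-126a-5p, which have at most 20 reads in a library.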
